A study of Mus musculus with 65 samples.

Results

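The astrocyte marker genes Gja1, Agt, Slc1a3, Clu, Cst3 and Vim were followed in the spinal cord of 65 C57BL/6 mice that differed in age, diet and sex. A member was any feature (a cDNA clone spotted on the filter) that the platform annotation assigned to 1 of these 6 symbols. This rule used no measured value, but the 6 symbols were chosen with earlier results of these data known. The rule found 7 features of 6 genes among the 8448 features of the filter, of which 4875 had a single symbol and stood for 4209 genes. Slc1a3 had 2 features, numbered 11683 and 16257, and the other 5 genes had 1 each.

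The mice were fed ad libitum (AL) or kept on caloric restriction (CR), a ration of fortified feed that was reduced in steps in young adults and then held. The AL groups were 10 juveniles of 17 to 44 days, 10 mice of 6 months (169 to 194 days), 10 of 16 months (476 to 499 days) and 10 of 24 months (704 to 743 days), with 5 males and 5 females in each. The CR groups were 3 males and 5 females of 6 months (174 to 194 days), 5 males and 5 females of 16 months (472 to 499 days), and 3 males and 4 females of 24 months (673 to 743 days). The adult mice were housed individually, and 1 array was made for each mouse of every group.

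Astrocytes buffer extracellular potassium, clear glutamate from synapses, couple to each other through gap junctions and secrete proteins into the extracellular space. Gja1 encodes the connexin of their gap junctions, and Slc1a3 encodes the glutamate transporter GLAST. Agt encodes angiotensinogen, Clu the extracellular chaperone clusterin, Cst3 the cysteine protease inhibitor cystatin C, and Vim the intermediate filament protein vimentin. These genes serve as astrocyte markers in the nervous system, but other cells use some of them too, such as microglia and choroid plexus for Cst3, neurons and ependyma for Clu, and endothelium, meninges and ependyma for Vim. The tissue was whole spinal cord, so that fewer cells of a type and less RNA per cell cannot be told apart.

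Each value was a Z score, for which 0 is the mean and 1 the standard deviation (SD) of all features of the same array. Differences are in these units, and the error given with a group mean is the SD over its mice. Levels were not compared between clones. By their values 62 arrays formed 2 runs (a division absent from the labels), of 41 and 21 arrays. Arrays 31 to 33 were placed in the second by their array numbers, which made it 24. The level of 3870 features (45.8%) differed between the runs. The runs were drawn from these same values, so this share and every p-value given for run are descriptive, without error control. Arrays 31 to 33 stood apart, with correlations to the mean profile of 0.744 to 0.936 against 0.963 to 0.991 for the other 62 arrays. They were 1 male and 1 female of the 6 month CR group and the male replicate 3 of the 6 month AL group, so that both 6 month groups rest partly on them. A run-adjusted difference below comes from the fit that had array run as covariate and left these 3 arrays out. The description of the 24 month AL male replicate 2 disagreed with its title and characteristics, and the mouse was kept in the group of the latter. Features near each other on the filter moved together, with a mean correlation of residuals of 0.41 for neighbours and 0.503 for features 22 apart, against a median of 0.107 over all distances up to 1200.

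No member feature passed an adjusted p of 0.05 in any of 17 comparisons of age, diet and sex (limma, Benjamini-Hochberg adjustment over 8448 features). Over these 119 tests the lowest adjusted p was 0.328, and 6 tests had an unadjusted p under 0.05, of which 5 belonged to Cst3 and 1 to Gja1. Of the 7 features Cst3 had the largest differences from 6 to 24 months and by diet over the 3 adult ages, and Vim had the smallest from 6 to 24 months in the fit of all arrays. Run-adjusted, Gja1 had smaller ones than Vim. The promoter windows of Cst3 and Vim are shown for their places in the fit of all arrays. They are RefSeq sequence of the build GRCm38.p6, 5′ to 3′ on the strand of the gene. Capitals mark the GC box letters GGGCGG in Cst3 (chr2:148875463-148875762, minus strand) and the TATA box letters TATAAA in Vim (chr2:13574061-13574360, plus strand).
Cst3: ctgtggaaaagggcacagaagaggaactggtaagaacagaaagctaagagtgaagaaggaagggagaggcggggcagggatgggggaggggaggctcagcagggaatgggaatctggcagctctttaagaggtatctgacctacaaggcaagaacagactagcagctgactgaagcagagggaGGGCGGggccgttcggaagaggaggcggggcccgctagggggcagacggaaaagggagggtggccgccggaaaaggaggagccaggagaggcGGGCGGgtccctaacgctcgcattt
Vim: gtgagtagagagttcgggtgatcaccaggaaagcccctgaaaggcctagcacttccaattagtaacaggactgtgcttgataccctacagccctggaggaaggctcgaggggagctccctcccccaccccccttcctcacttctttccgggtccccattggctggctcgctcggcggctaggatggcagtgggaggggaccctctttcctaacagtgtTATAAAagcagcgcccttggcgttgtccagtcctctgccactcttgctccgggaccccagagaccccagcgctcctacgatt

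The Cst3 window held 2 GC boxes and no TATA box, and the Vim window held 1 TATA box, 2 CCAAT boxes and no GC box, counted on both strands. Over 32851 promoter windows of the same length, 35.7% held a GC box, 13.6% a TATA box and 37.4% a CCAAT box. A GC box was also found in the window of Slc1a3, and a TATA box in those of Agt and Slc1a3. The AP-1 letters TGAGTCA occurred in 5.2% of all windows and, among the 5 members with a window, only in that of Gja1. Clu is named only.

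Cst3 encodes a secreted inhibitor of lysosomal cysteine proteases. In AL mice of 6 months its Z score ran from -0.90 to 0.67 with a median of 0.595. At 16 months it ran from 0.60 to 0.84 with a median of 0.73, and at 24 months from 0.56 to 1.04 with a median of 0.735. The 6 month mice overlapped both older groups, and the single value below 0 was that of array 33, the other mice of 6 months having 0.44 to 0.67. Group means were 0.438 ± 0.475 (SD, n = 10) at 6 months, 0.730 ± 0.0829 (n = 10) at 16 months and 0.747 ± 0.153 (n = 10) at 24 months. The difference from 6 to 16 months was 0.292 (SE 0.109, 95% interval 0.0745 to 0.510, limma adjusted p = 0.344). From 6 to 24 months it was 0.309 (SE 0.109, 95% interval 0.0915 to 0.527, adjusted p = 0.328), and from 16 to 24 months it was 0.017 (95% interval -0.201 to 0.235). Neither step from 6 months passed the adjusted threshold, although each of the 10 mice of 16 months exceeded the 6 month mean.

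On the CR diet Cst3 ran from -0.37 to 0.51 at 6 months (median 0.455, n = 8), from 0.44 to 0.81 at 16 months (median 0.55, n = 10) and from 0.56 to 0.80 at 24 months (median 0.68, n = 7). All 7 mice of 24 months lay above all 8 mice of 6 months, a separation in this direction that 5 of the 8448 features showed (0.0592%). The means were 0.255 ± 0.358 (SD, n = 8), 0.583 ± 0.118 (n = 10) and 0.694 ± 0.0872 (n = 7). From 6 to 24 months the difference was 0.449 (SE 0.128, 95% interval 0.192 to 0.706), which ranked 17 of 8448 features by p, and the adjusted p was 0.464. From 6 to 16 months it was 0.344 (SE 0.117, adjusted p = 0.689). The first steps of the selection in the study's methods (mean Z above 0, z-ratio of at least 1.5 in size, unadjusted p under 0.05) took Cst3 for CR from 6 to 16 months (0.722% of all features), CR from 6 to 24 months (3.36%) and CR against AL at 16 months (0.982%). The analysis of variance that followed in the methods was not applied.

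The values below 0 at 6 months were those of arrays 31 to 33, and the size of the Cst3 differences that involve a 6 month group depended on them. Without these arrays the 6 month groups had 0.587 ± 0.0740 (SD, n = 9) on AL and 0.445 ± 0.0692 (n = 6) on CR. The CR mice of 6 months then ran from 0.31 to 0.51, and how many features separate from 24 months without these arrays was not counted. Run-adjusted, the step from 6 to 24 months was 0.179 (SE 0.0532, adjusted p = 0.849) on AL and 0.269 (SE 0.0649, adjusted p = 0.123) on CR. The step from 6 to 16 months was 0.156 (SE 0.0516, adjusted p = 0.725) on AL and 0.161 (SE 0.0598, adjusted p = 0.999) on CR. Within the first run alone, with the sexes pooled, Cst3 was 0.261 higher (SE 0.0699) at 24 than at 6 months on AL and 0.202 higher (SE 0.0737) on CR. The second run held 1 such mouse of 6 months on AL and none on CR, and its AL step from 6 to 24 months was 0.0167 (SE 0.0842). Leaving out the 6 month AL male replicate 3 alone gave an adjusted p of 0.00587 for the unchanged CR difference of 0.449, since the shared residual spread of Cst3 fell (SE 0.0883).

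**Figure D1:**
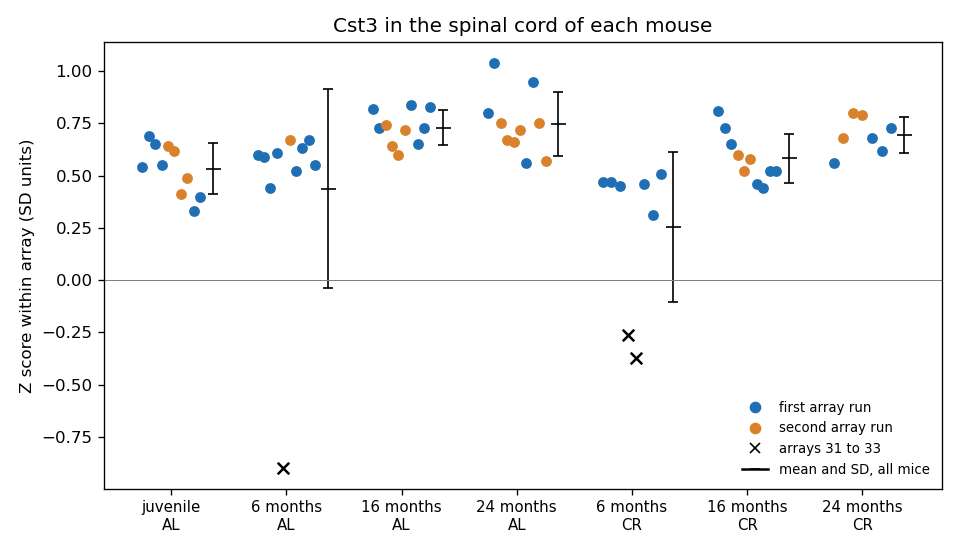
Cst3 Z score within each array (vertical axis, SD units) for each of 65 mice by stage and diet, with points coloured by array run, crosses for arrays 31 to 33, and bars for the group mean and SD over all mice. The CR mice of 24 months (0.56 to 0.80) lie above all CR mice of 6 months, and the 3 values below 0 are arrays 31 to 33.

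The mean of Cst3 was lower on CR than on AL at each adult age, but no such difference passed the test. The CR minus AL difference was -0.199 (SE 0.117) at 6 months, -0.147 (SE 0.109) at 16 months and -0.0595 (SE 0.120) at 24 months. The mean of the 3 ages was -0.135 (SE 0.0667, 95% interval -0.269 to -0.00166, limma adjusted p = 0.467). Of the CR mice 3 of 8 at 6 months, 8 of 10 at 16 months and 5 of 7 at 24 months lay below the AL mean of their age. The 6 month AL mean includes the low value of array 33. Below the AL median lay 8 of 8, 8 of 10 and 5 of 7. Run-adjusted, the mean difference was -0.124 (SE 0.0319, adjusted p = 0.641), and within the first run it was -0.166 (SE 0.0399, adjusted p = 0.276). At 24 months the difference within the first run was -0.190 (SE 0.0807) and within the second run 0.0700 (SE 0.0552), so the runs differed in sign at that age.

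The Cst3 clone lies in the last of the 22 positions that repeat along the feature numbers, and 3 of the 4 clones nearest to it in that position moved with it. Over 62 arrays its residuals, after group and run were removed, correlated at 0.795 with the clone of Rcl1 1 row away and at 0.761 with the clone of Bcas2 2 rows away. The other two clones within 2 rows in that position, Akr1b10 and an unnamed one, correlated at 0.521 and -0.0490. From 6 to 24 months Rcl1 and Bcas2 differed by 0.238 and 0.264 on AL and by 0.340 and 0.228 on CR, against 0.309 and 0.449 for Cst3. Akr1b10 differed by 0.112 on AL and 0.166 on CR, and the unnamed clone by -0.0530 and -0.158. Over the 14 nearest features in all directions the median difference was -0.0260 on AL and -0.0875 on CR. Their median residual correlation with Cst3 was 0.157, so centring on them cannot show what Cst3 shared with Rcl1 and Bcas2. After each feature was centred on its nearest features, the Cst3 step was 0.342 (SE 0.130, adjusted p = 0.280) on AL and 0.481 (SE 0.153, adjusted p = 0.217) on CR. The diet difference over the 3 ages was then -0.0904 (SE 0.0796, adjusted p = 0.686), and that at 24 months was 0.00635 (SE 0.144). Before centring, the 14 nearest features had diet differences over the 3 ages from -0.108 to -0.00300 (median -0.0376). Rcl1 had -0.108 and Bcas2 -0.0267, beside -0.135 for Cst3. The part of the neighbouring signal in the Cst3 values was not tested.

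Clu, the gene of an extracellular chaperone and apolipoprotein, had a Z score below 0 in every mouse. Its clone had a median percentile of 7.6 within the array, and the Slc1a3 features 11683 and 16257 had 33.0 and 19.4. All 3 had a mean Z below 0, and the study's selection left such features out as low against the background. In AL mice Clu ran from -1.69 to -0.86 at 6 months (median -1.48, n = 10) and from -1.53 to -0.91 at 24 months (median -1.21, n = 10), with wide overlap. The difference from 6 to 24 months was 0.156 (SE 0.107, 95% interval -0.0588 to 0.371, limma adjusted p = 0.521) on AL and 0.0972 (SE 0.127, 95% interval -0.157 to 0.351) on CR. Clu was 0.334 higher in the second run than in the first (SE 0.0417, adjusted p = 9.91e-10). The first run held 8 of the 10 AL mice of 6 months and 4 of the 10 of 24 months. Run-adjusted, the AL step was 0.0555 (SE 0.0689), and within the first run it was 0.0488 (SE 0.0908).

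Agt, the precursor of the angiotensin peptides, had group means from 0.214 to 0.334. In AL mice it ran from -0.41 to 0.37 at 6 months (median 0.245) and from 0.14 to 0.44 at 24 months (median 0.335). On CR it ran from -0.15 to 0.47 at 6 months (median 0.36) and from 0.21 to 0.42 at 24 months (median 0.32). The groups overlapped, and the 3 values below 0 were again arrays 31 to 33. The step from 6 to 24 months was 0.109 (SE 0.0633, adjusted p = 0.448) on AL and 0.0723 (SE 0.0748, adjusted p = 0.856) on CR. Run-adjusted, it was 0.0483 (SE 0.0376) on AL and -0.0445 (SE 0.0459) on CR. Agt did not differ between the runs beyond its error (-0.0202, SE 0.0228, adjusted p = 0.487).

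Gja1, which forms the gap junction channels between astrocytes, had group means from 1.05 to 1.19, lowest in AL mice of 6 months and highest in CR mice of 24 months. In AL mice it ran from 0.66 to 1.24 at 6 months (median 1.05) and from 0.89 to 1.37 at 24 months (median 1.20). The groups overlapped, yet 9 of 10 mice of 24 months exceeded the 6 month mean, and the difference was 0.135 (SE 0.0615, 95% interval 0.0117 to 0.258, adjusted p = 0.354). On CR it was 0.0713 (SE 0.0726, adjusted p = 0.852). Gja1 was 0.168 higher in the second run (SE 0.0299, adjusted p = 4.14e-06). Run-adjusted, the AL step was 0.0111 (SE 0.0494, adjusted p = 0.997), and within the first run, where 8 mice of 6 months met 4 of 24 months, it was 0.0962 (SE 0.0515). Over the 24 features nearest to Gja1 on the filter the median residual correlation with it was 0.741, the highest of the 7 members.

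The 2 clones of Slc1a3, the glutamate transporter, did not move together. Feature 11683 had group means from -0.432 to -0.288 and feature 16257 from -0.827 to -0.731, and over 62 arrays their residuals correlated at -0.156. On AL, from 6 to 24 months, feature 11683 differed by 0.126 (SE 0.0887, adjusted p = 0.531) and feature 16257 by -0.0810 (SE 0.0513, adjusted p = 0.483). On CR both differences were above 0, with 0.0803 (SE 0.105) for the former and 0.0578 (SE 0.0606) for the latter. Run-adjusted, they were -0.0371 (SE 0.0506) and 0.0597 (SE 0.0612). Among AL mice of 24 months, the 4 of the first run had -0.60 to -0.43 for feature 11683 and the 6 of the second run -0.22 to -0.04. The level of 45.8% of all features differed between the runs. How many separated in this group without overlap was not counted. The run difference was 0.326 (SE 0.0251, adjusted p = 1.4e-16) for feature 11683 and -0.0734 (SE 0.0304, adjusted p = 0.0432) for feature 16257. Run-adjusted, the AL steps were 0.0415 (SE 0.0415) and -0.0298 (SE 0.0502).

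Vim, an intermediate filament gene of immature and reactive astrocytes, had the narrowest span of group means, from 0.969 to 1.06. In AL mice it ran from 0.83 to 1.26 at 6 months (median 1.00) and from 0.82 to 1.20 at 24 months (median 1.04). The difference was 0.00700 (SE 0.0504, 95% interval -0.0940 to 0.108, adjusted p = 0.958), and on CR it was 0.0188 (SE 0.0595, 95% interval -0.100 to 0.138). The intervals leave room for differences of about 0.1 in either direction. Centred on its nearest features, the AL step of Vim was -0.0852 (SE 0.0349, limma adjusted p = 0.298). Vim was 0.134 higher in the second run (SE 0.0249, adjusted p = 9.04e-06).

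**Figure D2:**
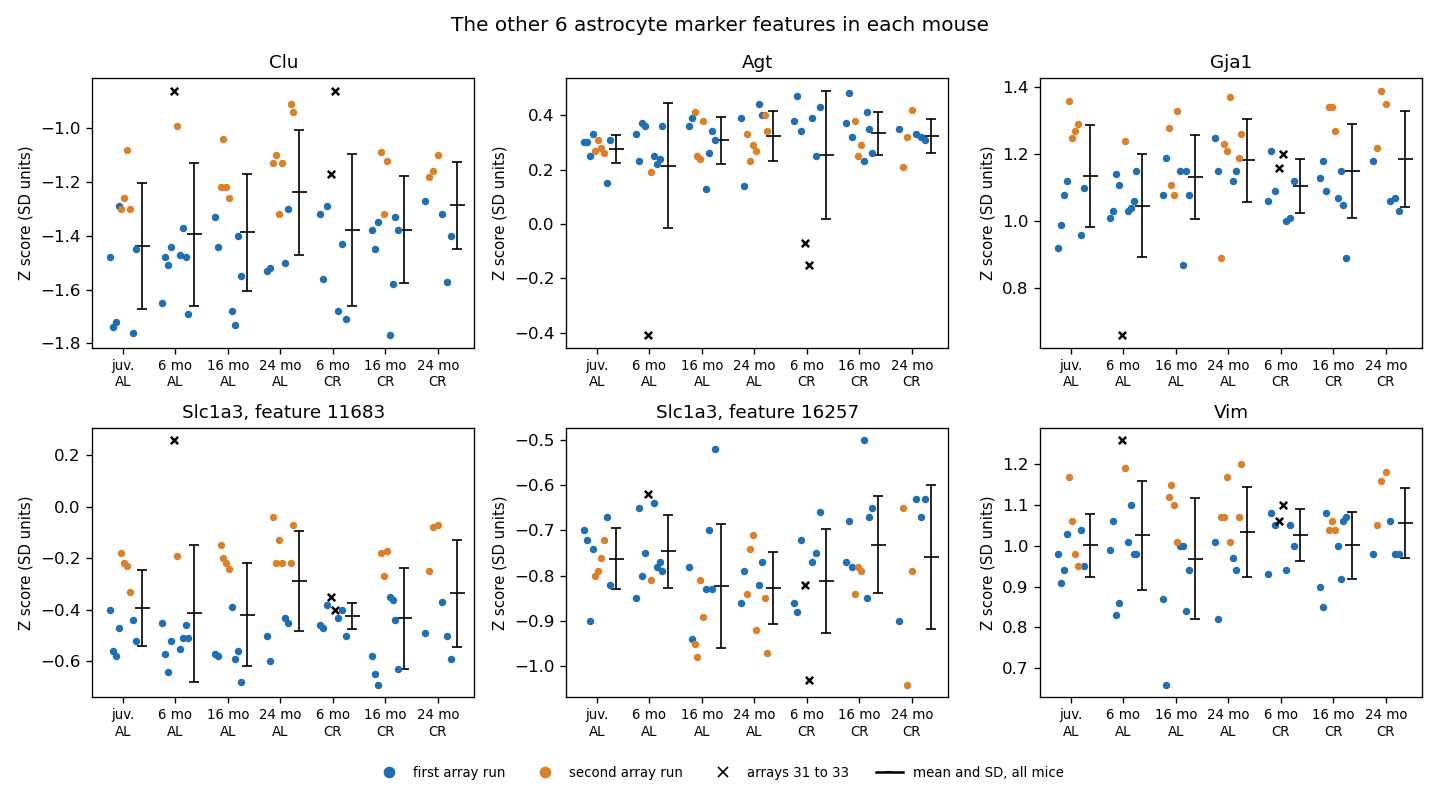
Z score within each array (vertical axes, SD units) of the other 6 member features for each mouse by stage and diet, with points coloured by array run, crosses for arrays 31 to 33, and bars for the group mean and SD. Groups overlap in every panel, and in Clu and Slc1a3 feature 11683 the second run lies above most of the first.

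**Figure D3:**
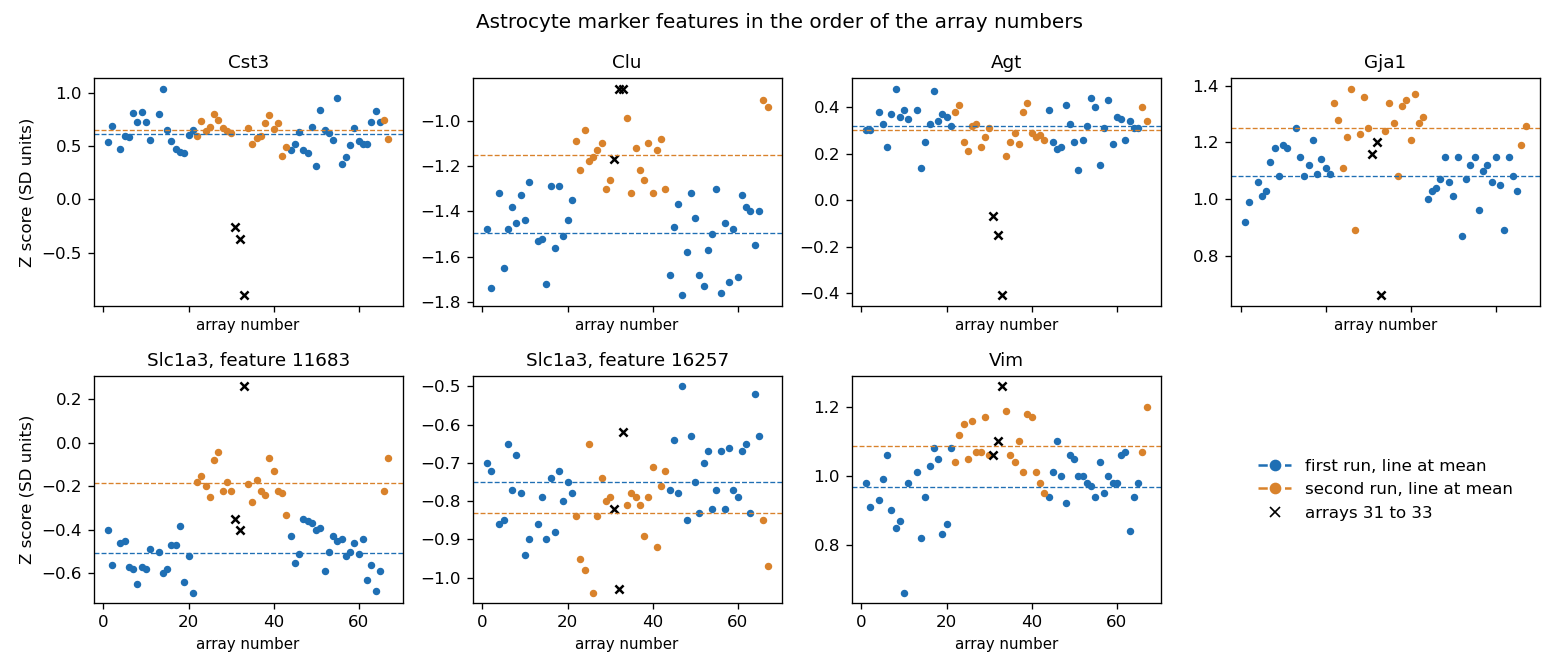
Z score (vertical axes, SD units) of the 7 member features against array number, with dashed lines at the mean of each run without arrays 31 to 33, which are marked by crosses. The second run is higher for Clu (0.334), Slc1a3 feature 11683 (0.326), Gja1 (0.168) and Vim (0.134) in the fit with group means, and arrays 31 to 33 lie below all others for Cst3 and Agt.

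The question for age in AL mice was whether these markers differ between stages of life. Of the 7 member features 0 were called from juveniles to 6 months, where 0.13% of all features were, and 0 had an unadjusted p under 0.05 (2.56% of all features). From 6 to 16 months 0 were called (0.0237% of all features) and 1 had an unadjusted p under 0.05 (13.3%), and from 16 to 24 months 0 were called (0% of all features) and 0 had an unadjusted p under 0.05 (1.99%). From 6 to 24 months 0 were called (0.071%) and 2, Cst3 and Gja1, had an unadjusted p under 0.05 (12.8%). Of the 7 features 6 were higher at 24 months, the exception being Slc1a3 feature 16257 (-0.0810). Centred on the nearest features, this feature turned to 0.0404 (SE 0.0348), and Vim turned from 0.00700 to -0.0852 (SE 0.0349). The median of the 7 differences was 0.126, beside -0.00200 over all features, and run-adjusted it was 0.0415 beside 0.00275. For the 6 features other than Cst3, the 95% intervals over this span lay between -0.184 and 0.371.

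In CR mice 0 of 7 member features were called from 6 to 16 months (0% of all features), from 16 to 24 months (0%) or from 6 to 24 months (0.0237%). At an unadjusted p under 0.05 the numbers were 1 (6.9% of all features), 0 (5.16%) and 1 (8.71%), all of them Cst3. All 7 differences from 6 to 24 months were above 0, with a median of 0.0723 beside 0.0166 over all features. Run-adjusted, 4 of 7 were, and the median was 0.0230 beside 0.00154. The CR step exceeded the AL step by 0.140 for Cst3 (SE 0.168, 95% interval -0.197 to 0.477), and run-adjusted by 0.0904 (SE 0.0813). Leaving out 1 mouse moved it from 0.0315 (without the 6 month CR male replicate 2) to 0.286 (without the 6 month AL male replicate 3). For this difference between diets 0 of 7 features were called (0% of all features), and 0 had an unadjusted p under 0.05 (1.56%).

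The effect of diet was tested at each adult age. At 6 months 0 of 7 were called (0.0237% of all features), at 16 months 0 (0%), at 24 months 0 (0%) and over the 3 ages 0 (0.0237%), where 1, Cst3, had an unadjusted p under 0.05 (10.6%). At single ages 0 had an unadjusted p under 0.05, against 7.77%, 0.746% and 7.42% of all features at 6, 16 and 24 months. For the other 6 features the differences over the 3 ages ran from -0.0241 for Slc1a3 feature 11683 to 0.0327 for feature 16257. Run-adjusted, all 6 were above 0, from 0.0191 for Clu to 0.0437 for Vim. In the fit of all arrays the 95% intervals of these 6 features lay between -0.138 and 0.125.

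**Figure D4:**
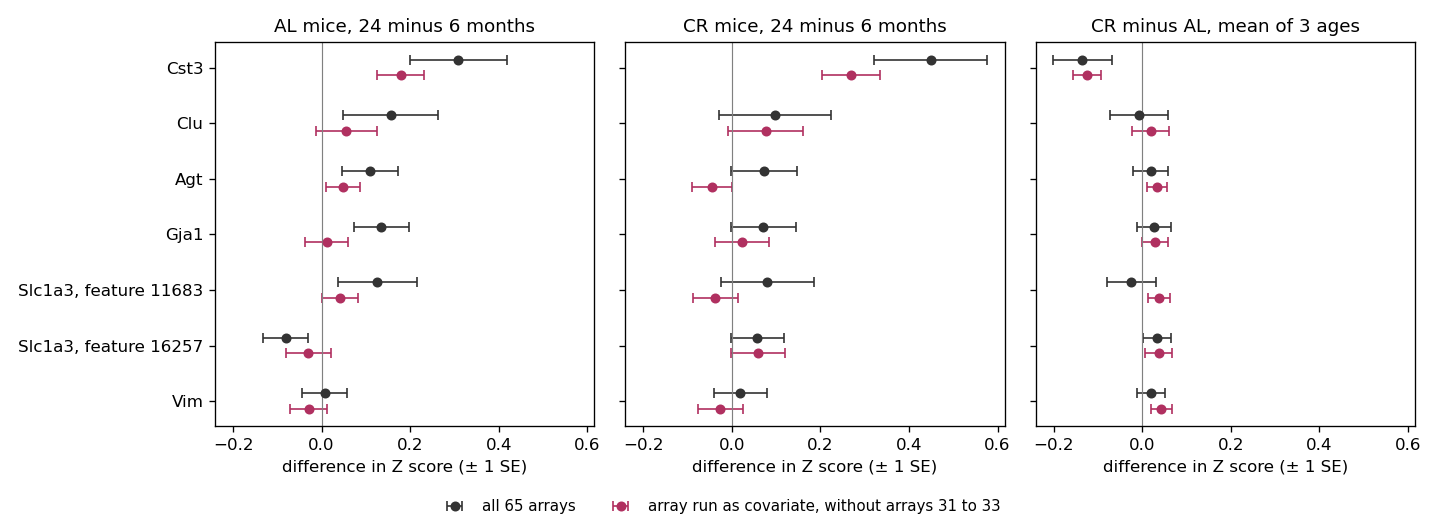
Differences in Z score with 1 standard error (horizontal axes) of the 7 member features for AL mice from 6 to 24 months, CR mice from 6 to 24 months, and CR minus AL over the 3 ages. Black points are the fit of all 65 arrays, and red points the run-adjusted fit. Cst3 lies farthest from 0 in all 3 panels, at 0.309, 0.449 and -0.135 in black and 0.179, 0.269 and -0.124 in red.

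Males and females did not separate for any member. In adults the male minus female difference was -0.101 (SE 0.0667, 95% interval -0.235 to 0.0327) for Cst3 and from -0.0427 for Gja1 to 0.0199 for Slc1a3 feature 11683 among the others. Of the 7 features 0 were called in adults (0% of all features) or juveniles (0%), and 0 had an unadjusted p under 0.05 (3.44% and 0.852% of all features). The sex difference of the AL step from 6 to 24 months was 0.258 (SE 0.217) for Cst3, and -0.0335 when the 6 month AL male replicate 3 was left out. For Agt it was 0.210 (SE 0.127, adjusted p = 0.995), and 0.0685 without the same mouse. For this sex difference and for that of the diet effect 0 of 7 were called (0% and 0% of all features), and 0 had an unadjusted p under 0.05 (1.14% and 3.15%).

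Among the juveniles, the 5 mice of 33 to 44 days were compared with the 5 of 17 to 21 days. In the fit 6 of the 7 features were lower in the older juveniles, the largest gap being that of Clu, from -1.33 ± 0.244 (SD, n = 5) to -1.54 ± 0.194 (n = 5). Gja1 had 1.20 ± 0.144 (n = 5) and 1.07 ± 0.145 (n = 5). The groups overlapped for both genes, and the limma differences were -0.204 (SE 0.151) for Clu and -0.127 (SE 0.0843) for Gja1. The first run held 4 of the 5 older and 2 of the 5 younger juveniles. Run-adjusted, the differences were -0.0710 (SE 0.0946) for Clu and -0.0648 (SE 0.0661) for Gja1, and the largest was that of Cst3 (-0.111, SE 0.0716). Of the 7 features 0 were called (0% of all features), and 0 had an unadjusted p under 0.05 (2.17%).

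The order of the 7 groups of stage and diet was not resolved for any member with all arrays. Of 42 gaps between neighbours in the order of the means (6 for each feature), 0 exceeded the larger SD of the 2 groups. Without arrays 31 to 33, 1 of 42 did, namely the gap of 0.108 in Cst3 between AL mice of 6 months (0.587) and CR mice of 24 months (0.694).

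Members were also compared with each other over the mice, as a description. The 21 pairs of member features had residual correlations from -0.369 to 0.431 with a median of -0.0439 over 62 arrays, group and run removed, and 8 of 21 were above 0. The highest was that of Gja1 with Agt (0.431). Before run was removed, Slc1a3 feature 11683 correlated at 0.680 with Vim and at 0.655 with Clu, and afterwards at 0.348 and -0.0439.

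The features most like each member, by residual correlation over the same 62 arrays, were not other astrocyte markers of the list below. For Gja1 they were Hsf2bp (0.901), Myadm (0.877) and Aldh3b1 (0.874), for Agt they were Rps14 (0.875), Pcif1 (0.815) and Rtn3 (0.779), and for Cst3 they were Rcl1 (0.795), Bcas2 (0.761) and Usp33 (0.746). For Vim they were Gramd1a (0.793), Gtf2b (0.790) and Ppp4c (0.750), and for Clu they were Stra6 (0.594), Phc1 (0.589) and Cdon (0.559). Slc1a3 feature 11683 was most like Pcyt1a (0.604), Slc2a5 (0.539) and Gm10509 (0.515), and feature 16257 was most like Lrrc27 (0.794), Sez6l (0.732) and Zfp706 (0.732). All features share the array, its scaling and its position effects, and the clones of Myadm and Rcl1 lie 1 row from those of Gja1 and Cst3.

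Few other astrocyte genes had a named feature on the filter. Gfap and Aqp4 were not among them. Of 60 further astrocyte markers 7 were measured (Aldh1a1, Gstm1, Id3, Mfge8, Ndrg2, Sparcl1 and Tril), as 9 features. From 6 to 24 months on AL 0 of 9 were called by limma (0.071% of all features), 3 had an unadjusted p under 0.05 (12.8%), 6 were higher, and the median difference was 0.031, against 0.126 for the members. Run-adjusted, the median was -0.00237. Gstm1, a glutathione transferase, had 0.174 (SE 0.0712, adjusted p = 0.351) and 0.0936 run-adjusted, and Aldh1a1, an aldehyde dehydrogenase, had 0.474 (SE 0.199, adjusted p = 0.351) and 0.0301 run-adjusted. Of 44 genes of reactive astrocytes 11 were measured as 13 features, of which 0 were called, 2 had an unadjusted p under 0.05 (12.8% of all features) and 9 were higher, with a median of 0.0270. Run-adjusted, 11 of these 13 features were higher, with a median of 0.0345 beside 0.00275 over all features. In the fit of all arrays the largest moderated t of this list were those of Anxa2 (0.131, SE 0.0513, adjusted p = 0.346) and Tm4sf1 (0.461, SE 0.182, adjusted p = 0.346).

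The pathways of the members were sparsely covered too. Of gap junction genes 3 of 24 were measured (Gja4, Gjc1 and Tjp1), of the renin-angiotensin system 3 of 22 (Agtr2, Agtrap and Atp6ap2), and of glutamate handling 9 of 23. Of extracellular chaperones and lipoprotein genes 6 of 26 were measured, of cystatins and cathepsins 4 of 23, and of intermediate filament genes and their linkers 5 of 27. No feature of these 6 lists was called by limma in any comparison. An unadjusted p under 0.05 from 6 to 24 months on AL was seen for 2 of 9 features of the chaperone and lipoprotein list and 1 of 5 of the cystatin list (12.8% of all features). The median differences of the 6 lists over this span were -0.072, 0.054, 0.007, 0.029, 0.068 and 0.01, in the same order, beside -0.00200 over all features. Run-adjusted, they were 0.0116, -0.00814, -0.00836, 0.0172, 0.00891 and -0.0342, so that 4 of 6 changed sign. Tjp1, a scaffold at cell junctions that binds connexins, had 0.0660 (SE 0.0422), and the connexin gene Gjc1 had -0.101 (SE 0.107). The angiotensin receptor gene Agtr2 had 0.10 (SE 0.0647), and Agtrap, whose product binds another angiotensin receptor, had 0.0540 (SE 0.0718). The vesicular glutamate transporter gene Slc17a6, a marker of neurons, had -0.263 (SE 0.137), and run-adjusted -0.00147. Tinagl1 of the cathepsin list had 0.465 (SE 0.213, adjusted p = 0.356), and run-adjusted 0.0814. Vldlr, a lipoprotein receptor, had -0.248 (SE 0.0970, adjusted p = 0.346), and Plxna4, a semaphorin receptor, had 0.242 (SE 0.0833, adjusted p = 0.328) in 1 clone and 0.0290 (SE 0.0664) in the other.

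Among the lists of other cells, called features were found in that of microglia. Of 30 microglial genes 10 were measured as 11 features, and 3 features were called higher from 6 to 24 months on AL (0.071% of all features were called), against 0 on CR (0.0237%), where 4 had an unadjusted p under 0.05 (8.71%). The 3 called were both clones of the lysosomal protease gene Ctsd (0.459, SE 0.0955, adjusted p = 0.0353, and 0.429, SE 0.0941, adjusted p = 0.0414) and the complement gene C1qa (0.286, SE 0.0619, adjusted p = 0.0414). These calls came from the fit of all arrays, without run as covariate. The median difference of the 11 features over this AL span was 0.12 in that fit and 0.0864 run-adjusted, with 9 of 11 above 0 in both. The mean Z score of the 11 features ran from -0.620 to -0.0718 over AL mice of 6 months (from -0.176 without array 33) and from -0.0818 to 0.0582 over those of 24 months. On CR it ran from -0.335 to -0.0464 and from -0.0964 to 0.0527. The part of microglial RNA in the Cst3 values was not tested. No feature of the oligodendrocyte (4 of 25 genes measured), neuron (3 of 28), endothelial and mural (3 of 22), meningeal (12 of 20), ependymal and choroid plexus (3 of 15) or blood (4 of 9) lists was called by limma in any comparison. From 6 to 24 months on AL an unadjusted p under 0.05 was seen for 2 of the 17 meningeal and 1 of the 17 blood features (12.8% of all features).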

How the data were processed

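Radioactive cDNA from spinal cord was hybridized to 1 of the filters (B) of a mouse cDNA array on nylon, and the scanned spots were quantified in ArrayPro. The authors deposited a score for each feature, the Z score within each array (mean 0, SD 1 over 8448 features). Neither log base nor background treatment is given in the sources used here. A Z score cannot show a change shared by most features, and precision depends on how many arrays were made.

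The platform annotation gave the gene names. Members and gene lists were chosen with earlier results of these data known. The test was limma 3.58.1 in R 4.3.3 (lmFit and eBayes, 14 group means of stage, diet and sex, sexes weighted equally, 51 residual degrees of freedom), checked on simulated data, with Benjamini-Hochberg adjustment over all features. Named genes were every member feature, the 3 likest features of each, and list features called or with the largest moderated t from 6 to 24 months on AL. Alternatives were array run as a covariate, leaving out arrays 31 to 33, array weights, quantile normalization, centring on positions, a filter on mean Z, pooled sexes, leaving out each mouse, and the methods' selection (mean Z above 0, z-ratio of at least 1.5 in size, unadjusted p under 0.05, without the analysis of variance that followed it). Chosen after seeing the data were values within each run, the set of array numbers as a block, centring on positions in the run-adjusted fit and centring on the nearest features (within 2 rows and 2 columns of blocks of 24 rows of 22, a layout inferred from the correlations).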

Additional observations from a re-analysis of the deposited data

Results flagged for a closer look

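Single mice far from the rest of their group were looked for in 49 groups of member values (7 features in 7 groups of stage and diet). By Dixon's criterion 6 values stood out, and chance alone gives about 1 in 20 groups. Of these, 4 were array 33, the 6 month AL male replicate 3, which had 0.66 for Gja1 (nearest other mouse 1.01), -0.41 for Agt (0.19), 0.26 for Slc1a3 feature 11683 (-0.19) and -0.90 for Cst3 (0.44). The 24 month AL male replicate 2, whose description disagreed with its other labels, had 0.89 for Gja1 (nearest 1.12). The juvenile AL male replicate 5 had 0.15 for Agt (nearest 0.25). The cause of these values was not tested.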

How the results depend on the processing

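The count of 0 called member features held in every comparison with run as covariate, on leaving out arrays 31 to 33, under quantile normalization, both centrings, a block by array set, the filter on mean Z (4 member features left), pooled sexes and within each run. With array weights, 3 were called for age on AL, all from 6 to 24 months: Slc1a3 feature 11683 (0.296, adjusted p = 0.00516), Cst3 (0.166, adjusted p = 0.0119) and Clu (0.299, adjusted p = 0.0102). That fit, whose weights did not converge, called 21.7% of all features. The methods' selection gave 2 for age on CR, Cst3 at 16 months (0.328) and 24 months (0.439) against 6 months, where it took 0.722% and 3.36% of all features, and 1 for CR against AL, Cst3 at 16 months (-0.147, 0.982% of all features). Leaving out 1 mouse gave 0 to 1 for age on CR, the 1 being Cst3 without the 6 month AL male replicate 3, and 0 elsewhere.

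Slc1a3 feature 16257 changed direction in 2 cases, when centred on the nearest features: the AL step from 6 to 24 months became 0.0404, and CR minus AL at 6 months, run-adjusted, became 0.0520. Here a difference under its own SE was taken to have no direction. Counted whatever their size, signs changed in 301 of 1832 values under other settings and in 207 of 7735 on leaving out 1 mouse. The labels give no replicate numbers, but array numbers ran through the groups in 5 sets. Arrays of the same set deviated together (mean correlation 0.21, against -0.0496 between sets). Within the same run and without arrays 31 to 33 the contrast was smaller, with 0.35 in the same set against 0.241 between sets. With array set as replicate block the Cst3 step from 6 to 24 months was 0.309 (adjusted p = 0.101) on AL and 0.414 (adjusted p = 0.383) on CR, and run-adjusted as well 0.183 (adjusted p = 0.544) and 0.267 (adjusted p = 0.0619).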
